A study of Mus musculus with 3 samples.

Results

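BCMA, TACI and the BAFF receptor are the receptors through which B cells and plasma cells read the ligands BAFF and APRIL. They are encoded in the mouse by Tnfrsf17 (BCMA), Tnfrsf13b (TACI), Tnfrsf13c (BAFF receptor), Tnfsf13b (BAFF) and Tnfsf13 (APRIL). The genes were taken by name, through the annotation that pairs the probes of the array with gene symbols, and not by their values. Of these 5 genes, 4 had a named probe, 1 probe each, among 16390 genes with a named probe. No probe was named for Tnfrsf13c, so the BAFF receptor was not analysed here.

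The receptors belong to the TNF receptor superfamily and lack enzymatic activity. Ligand binding recruits TRAF adaptors to their cytoplasmic tails and leads to NF-kB and kinase signals that hold back apoptosis. BAFF binds all 3 receptors and is best known for keeping mature B cells alive through the BAFF receptor. APRIL binds BCMA and TACI, is held near the cell surface by heparan sulfate chains, and supports plasma cells in the bone marrow. BCMA is a receptor of plasma cells and is needed for the long survival of these cells in the marrow. TACI is carried by marginal zone and activated B cells and by plasma cells, and takes part in antibody class switching.

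RNA came from 3 populations, freshly isolated by flow sorting from mice that carry the IL-10 Venus reporter, whose Venus protein marks cells that express Il10. The control was splenic B220+ cells, and the other populations were Venus+ CD138hi cells, taken from spleen and from bone marrow. B220 is an isoform of CD45 on B cells, CD138 (syndecan-1) is a surface protein of plasma cells, and all 3 populations carry the reporter allele, with no gate on B220 named for the Venus+ cells. How many mice went into a sort, and their age, was not stated in these sources. Each population was measured on 1 single-colour array, so no difference below has a replicate check, no test was made, and array and population cannot be told apart. In sorted bulk RNA, fewer cells of a type and less RNA per cell also cannot be told apart.

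Levels are normalized signals, with the blank spots' mean subtracted and the median detected probe of each array set to 25. The error after ± is a spot error, which joins the SD of the blank spots to the spread of positive control spots on the same array, and it covers neither mice nor sorts. A probe was detected when its spot exceeded the blank mean by 2 SD. A gene with signal on both arrays was counted as higher or lower from 2-fold on. Where 1 array lay below its detection limit, the fold is a lower bound, written "at least", against the higher of that array's lowest detected signal and the dim probe's own signal. Signals of different probes are not set against each other, since probes differ in how well they bind. Between 67.6% and 73.4% of the 23473 probes were detected per array, and the lowest detected signals were 1.34 to 2.35.

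The labels held against defining genes. Il10, the gene behind the reporter, had signals of 5.94 (B220+), 88.8 (spleen Venus+) and 91.3 (marrow Venus+). Of 9 plasma cell markers with a probe, a list that holds Tnfrsf17 itself, 8, 9 and 9 were detected in the same order, with summed signals of 1001, 14515 and 17987. Of 9 mature B cell markers, 9, 8 and 7 were detected, with summed signals of 29591, 10686 and 4251, so the Venus+ arrays kept some signal of this list. Lists of other cell types also had signal. Neutrophil markers summed to 4998 in B220+ cells, against 116 and 546 in the Venus+ cells. T cell markers summed to 421 in B220+ cells, against 1061 and 1177 in the Venus+ cells.

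Tnfrsf17, on chromosome 16, had the steepest contrast of the measured receptors and ligands. Its spot read 43.7 scanner units with B220+ RNA, 1884 with spleen Venus+ RNA and 3160 with marrow Venus+ RNA. In B220+ cells it was not detected, below the limit of 46.2, and 44.8% of that array's 2736 blank spots and 96.1% of its 1102 spots without a probe were as bright or brighter. The normalized signal was 1435 ± 82.8 in spleen Venus+ and 2936 ± 153 in marrow Venus+ cells. Both Venus+ arrays were therefore far above background and the B220+ array was at it.

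The bounds that follow were at least 1068-fold for spleen Venus+ and at least 2185-fold for marrow Venus+ cells, each against B220+ cells. Both are read against the same B220+ array and are not independent of each other. Of the 803 genes detected in spleen Venus+ but not in B220+ cells, 63.9% had a bound of at least 2-fold. Of the 711 detected in marrow Venus+ but not in B220+ cells, 91.8% had such a bound. With a normexp background, an alternative correction that shrinks the ratios of dim spots, the bounds were 5.32 and 6.15 on the log2 scale, against 10.06 and 11.09 as described.

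Between the Venus+ arrays, Tnfrsf17 was 2.05-fold higher in the marrow (log2 ratio 1.03 ± 0.11). Of 11352 genes detected on both, 19.5% differed at least 2-fold and 4.33% were higher in the marrow, and 452 genes (3.98%) had a higher ratio than Tnfrsf17. Over all genes the log2 ratio had a median of -0.17, and Tnfrsf17 lay 1.21 above it. The ratio ran from 0.83 to 1.47 over 11 alternative ways of processing, so it was above 0 under all of them. It fell under 2-fold under 3 of them, at 0.83 with the normexp background, 0.95 with a limit from spots without a probe and 0.96 with quantile normalization. Not all of the 11 could move it. A minimum signal and a mean over probes leave a bright gene with 1 probe as it is, and the authors' own values repeat the same processing.

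**Figure D1:**
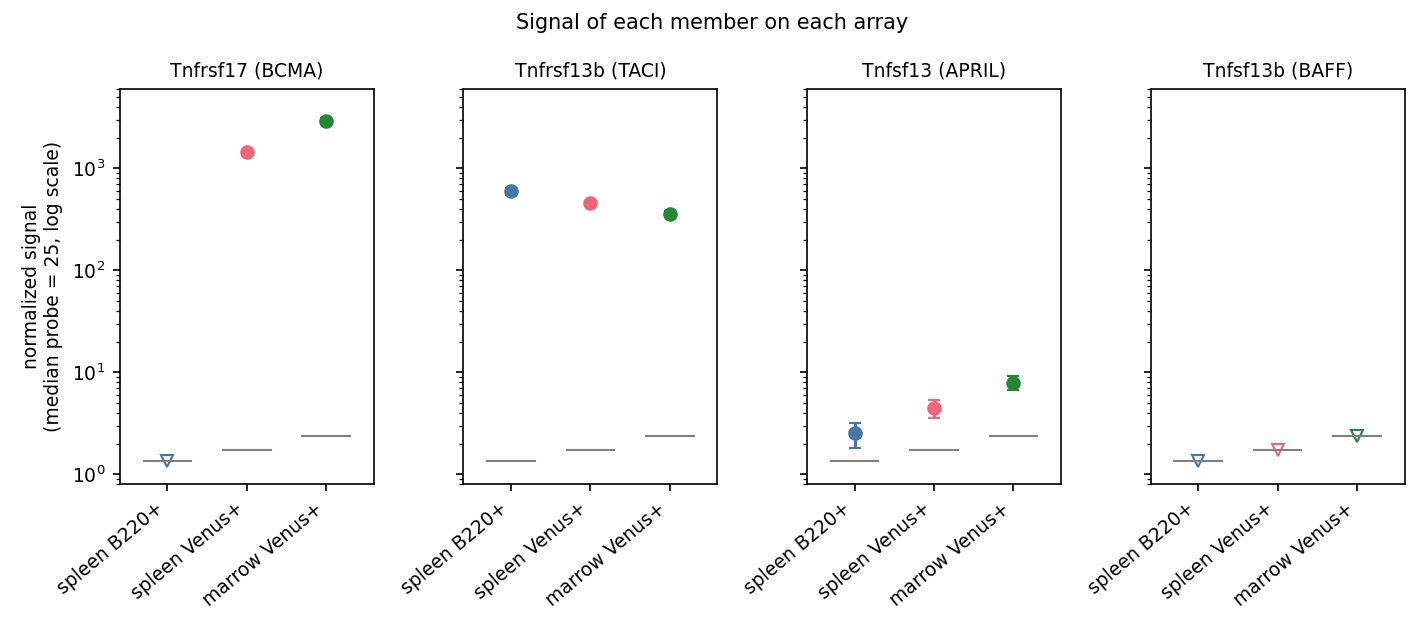
Normalized signal (log scale, median detected probe of an array set to 25) of the 4 genes with a probe in spleen B220+, spleen Venus+ CD138hi and marrow Venus+ CD138hi cells, 1 array each. Filled points are detected signals with their spot error, open triangles mark undetected probes and stand at the lowest detected signal of that array, and grey bars show that signal: Tnfrsf17 goes from undetected to 1435 and 2936, Tnfrsf13b stays between 360 and 599, Tnfsf13 lies near the bars and Tnfsf13b is undetected on all 3 arrays.

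The 250 bases before a RefSeq start of each gene, called its start below, were searched on both strands for short motifs of factors known in B cells and plasma cells. The windows below are shown for the receptor whose signal changed most between arrays, for the receptor whose signal changed least, and for the ligand at background. The sequences come from RefSeq's mouse assembly GRCm38.p6, 30 bases each, written 5′ to 3′ on the strand of the gene, and capitals mark the motif.
Tnfrsf17 ISRE: aaataggtggTTTCTGTTTCaggaatagtt
Tnfrsf17 MEF2: taactttcctCTATAAATAGgtggtttctg
Tnfrsf13b MEF2: acaaaatctcaggCTAATAATAAacgccct
Tnfsf13b ISRE: atcttacaaaaactGAAAGTGAAAtgcgga
The first window (chr16:11313698-11313727, plus strand gene) holds the interferon-stimulated response element (ISRE: GAAA, any 2 bases, GAAA), a motif of IRF factors, on the minus strand, 101 to 92 bases before the Tnfrsf17 start. The second (chr16:11313684-11313713) holds a MEF2 motif 115 to 106 bases before the same start, and the letters TATAAA inside it also match the TATA box. The third (chr11:61126725-61126754, plus strand gene) holds a MEF2 motif 17 to 8 bases before the Tnfrsf13b start. The fourth (chr8:10006603-10006632, plus strand gene) holds an ISRE 16 to 7 bases before 1 of the 2 RefSeq starts of Tnfsf13b. Of all 32851 RefSeq promoters searched over the same length, 2.98% held the ISRE, 2.92% the MEF2 motif and 12.4% TATAAA. The RefSeq gene span begins upstream of the start used for Tnfrsf17 (11313232 against 11313809) and for Tnfrsf13b (61126283 against 61126755). For Tnfsf13b it begins at 10006229, upstream of the starts used, 10006467 and 10006633. The windows shown thus lie inside the annotated genes. The ISRE was found in the window of Tnfrsf17, bright in the Venus+ cells, and in that of Tnfsf13b, at background everywhere. The ETS-IRF element (GGAA, any 2 bases, GAAA, in 2.30% of promoters), the XBP1 core ACGTG (16.6%), the octamer ATGCAAAT (1.60%) and the kappaB motif (7.25%) were not found in these windows for any of the 5 genes. The Blimp1 core GTGAAAG (3.57%) and the E boxes CAGGTG (17.2%) and CAGCTG (13.001%) were found before Tnfrsf13c alone, and CCCNNGGG, an EBF1 motif (11.8%), before Tnfsf13 alone. These matches describe letters in the windows and are no measure of binding.

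Tnfrsf13b, the TACI gene on chromosome 11, was bright on all 3 arrays and differed little between them. Its spot read 1187 (B220+), 625 (spleen Venus+) and 424 (marrow Venus+). The normalized signals were 599 ± 45.3, 455 ± 26.3 and 360 ± 18.8 in the same order. The B220+ cells were highest and the marrow Venus+ cells lowest, the reverse of the order of Tnfrsf17.

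Tnfrsf13b was 1.32-fold lower in spleen Venus+ (log2 ratio -0.40 ± 0.14) and 1.66-fold lower in marrow Venus+ cells (log2 ratio -0.73 ± 0.13) than in B220+ cells, and neither reached 2-fold. In these comparisons 32.2% of 11618 genes and 53.1% of 10813 genes differed at least 2-fold, so Tnfrsf13b was among the genes that did not. Between the Venus+ arrays it was 1.26-fold lower in the marrow (log2 ratio -0.34 ± 0.11). Against a median of -0.24 over all genes for marrow Venus+ over B220+ cells, it lay 0.49 below, and 62.6% of the genes had a higher ratio. Neighbours in the order B220+, spleen Venus+, marrow Venus+ were thus 1.32-fold and 1.26-fold apart on single arrays, and how far that exceeds the spread between sorts was not tested.

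The spleen ratio of Tnfrsf13b depended on the background. The scanner's local background beside its spot was 653 (B220+), 87.8 (spleen Venus+) and 303 (marrow Venus+). With that background subtracted, the log2 ratio turned to 0.76 for spleen Venus+ over B220+ cells, and was -1.23 for marrow Venus+ over B220+ and -1.99 for marrow over spleen Venus+ cells. Local backgrounds of this size were general on these arrays, where they made up a median of 53.7% to 60.4% of the spot for probes with a signal of 100 or more. With the 75th percentile as the scale, the ratios against B220+ cells shrank to -0.08 and -0.28. A lower Tnfrsf13b in marrow Venus+ than in B220+ cells kept its sign under all 11 alternatives, between -1.23 and -0.28. As for Tnfrsf17, not all of the 11 could have moved it.

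Tnfrsf17 and Tnfrsf13b thus differed in how they changed, each within its own probe. The log2 ratio of Tnfrsf17 exceeded that of Tnfrsf13b by at least 10.46 in spleen Venus+ and by at least 11.83 in marrow Venus+ cells, both against B220+ cells. From spleen to marrow Venus+ cells the difference was 1.37 ± 0.16, with Tnfrsf17 higher and Tnfrsf13b lower in the marrow.

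**Figure D2:**
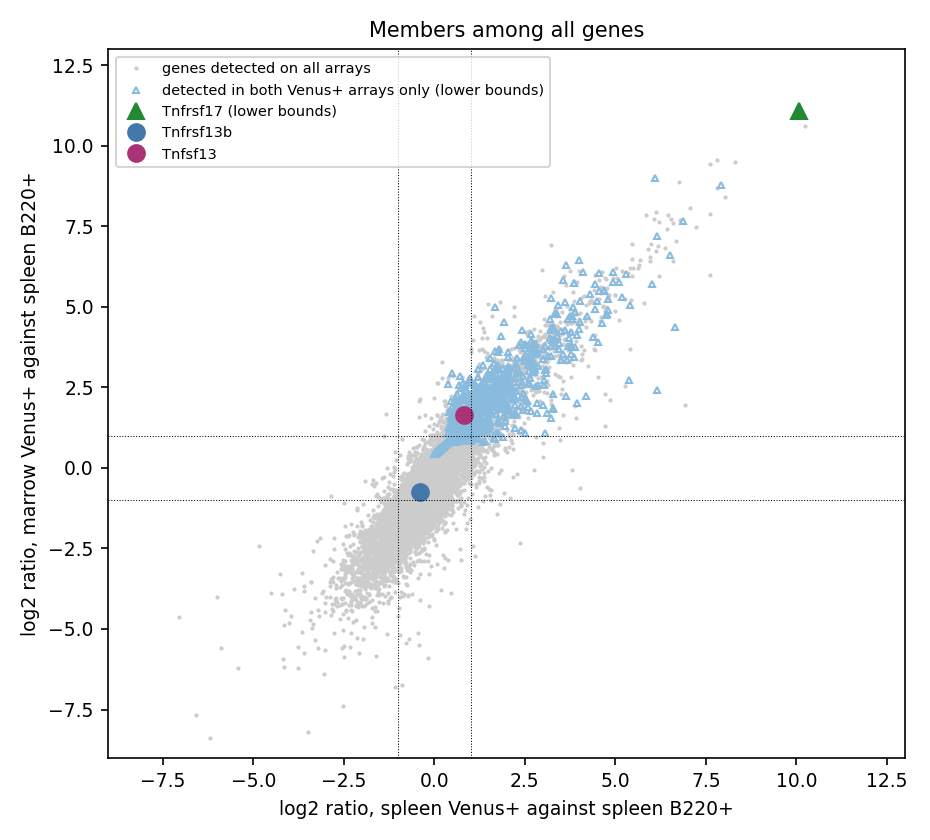
Log2 ratio of spleen Venus+ over spleen B220+ cells (x axis) and of marrow Venus+ over spleen B220+ cells (y axis), which share the B220+ array; grey dots are genes detected on all 3 arrays, open triangles are lower bounds of genes detected on both Venus+ arrays but not in B220+ cells, and dotted lines mark 2-fold. Tnfrsf17 stands at bounds of 10.06 and 11.09, Tnfrsf13b at -0.40 and -0.73 and Tnfsf13 at 0.83 and 1.65.

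The ligand genes were dim. Tnfsf13b, the BAFF gene on chromosome 8, was not detected on any array, with spots of 44.4 (B220+), 42.03 (spleen Venus+) and 42.5 (marrow Venus+) against limits of 46.2, 42.7 and 43.7. Of the 1102 spots without a probe, 89.2%, 21.0% and 66.3% were as bright or brighter. All 3 arrays therefore give only an upper bound for this probe, and no fold is given. BAFF is made mainly by myeloid and stromal cells, and 8, 4 and 6 of 10 monocyte and macrophage markers were detected on the 3 arrays, with Cd14 undetected on all of them.

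Tnfsf13, the APRIL gene on chromosome 11, was detected on all 3 arrays, close to background. Its spots read 48.5 (B220+), 46.2 (spleen Venus+) and 49.6 (marrow Venus+), and its signals were 2.52 ± 0.70, 4.47 ± 0.91 and 7.89 ± 1.25. The B220+ array was lowest and the marrow Venus+ array highest, as for Tnfrsf17 but at a far smaller fold.

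Tnfsf13 was 1.78-fold higher in spleen Venus+ (log2 ratio 0.83 ± 0.49) and 3.13-fold higher in marrow Venus+ cells (log2 ratio 1.65 ± 0.46) than in B220+ cells, of which the second passed 2-fold. In that comparison 22.4% of genes were at least 2-fold higher, and 12.1% had a higher ratio than Tnfsf13. From spleen to marrow Venus+ cells it was 1.76-fold higher (log2 ratio 0.82 ± 0.37), and 7.29% of genes had a higher ratio.

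The B220+ value of Tnfsf13 was hard to tell from background. Of the 1102 spots without a probe, 124 (11.3%) were as bright or brighter on that array, against 2 on the spleen and 1 on the marrow Venus+ array. With a limit taken from those spots it was undetected in B220+ cells, with bounds of 1.85 and 2.46 on the log2 scale, and with the normexp background the ratios were 0.26 and 0.42. With each spot's local background subtracted it was again undetected in B220+ cells, and its normalized signals were 5.77 in spleen Venus+ and 7.40 in marrow Venus+ cells. RefSeq also lists a readthrough gene, Tnfsfm13, over the same locus, so the probe may read both transcripts. Summed signals of the monocyte and macrophage markers were 102, 147 and 286 in the order of the arrays. Of those measured against B220+ cells, 1 was higher and 2 lower, of 4 in spleen and of 5 in marrow Venus+ cells. Adgre1, Ccr2 and Marco were detected in B220+ cells alone, and Itgam in marrow Venus+ cells alone. Dendritic cell markers summed to 171, 191 and 281, with Itgax, Xcr1 and Clec9a undetected on all 3. Of 6 measured, 2 and 3 were higher and 1 was lower. Over all genes 15.7% and 16.5% were higher and lower in the spleen and 22.4% and 30.7% in the marrow comparison. The part of such cells in the Tnfsf13 signal was not tested. Eosinophil, basophil and mast cell markers, of which marrow eosinophils are a known APRIL source, summed to 87.2, 4877 and 6327, and Prg2 alone, which plasma cells also express, made up 3.84, 4646 and 6082 of these, while Epx, Siglecf and Fcer1a were undetected on all 3 arrays. Without Prg2 the sums were 83.3, 231 and 245. Of the 4 genes measured in each comparison with B220+ cells, Prg2 included, 4 were at least 2-fold higher in spleen Venus+ and 3 in marrow Venus+ cells. Over all genes 15.7% and 22.4% were. Ccr3 and Ms4a2 of this list went the other way, detected in B220+ cells and on neither Venus+ array. Of 11 neutrophil markers, with the sums given above, 9, 4 and 9 were detected. From spleen to marrow Venus+ cells 4 of 4 measured were at least 2-fold higher (median log2 ratio 1.87), against 4.33% of all genes. Against B220+ cells 1 of 4 was higher and 3 lower in spleen Venus+, and 2 of 8 were higher and 5 lower in marrow Venus+ cells. The part of eosinophils, basophils, mast cells and neutrophils in the Tnfsf13 signal was not tested either.

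**Figure D3:**
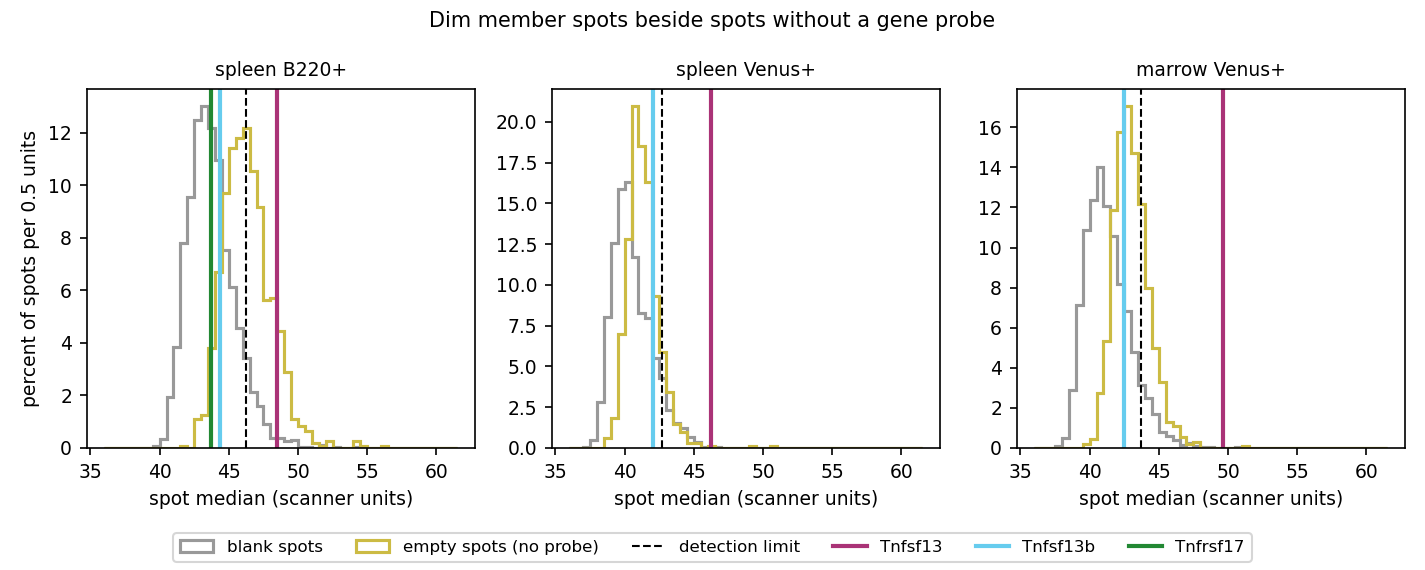
Distribution of spot medians (x axis, scanner units) of the 2736 blank spots and the 1102 spots without a probe on each array (y axis, percent of spots per bin), with the detection limit (dashed) and the spots of Tnfsf13, Tnfsf13b and, where it was dim, Tnfrsf17. Tnfsf13 lies inside the upper tail of the probe-free spots in B220+ cells and beyond nearly all of them in both Venus+ populations, while Tnfsf13b lies below the limit on each array.

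For the genes with a measured ratio against B220+ cells, likeness was the Euclidean distance over both log2 ratios, across 3 arrays and 10767 genes detected on all of them. For Tnfrsf13b, 1711 genes lay within 0.5, the nearest being Lcmt1, Carm1, Trmo, Vps13d and Spg7. For Tnfsf13, 765 genes lay within 0.5, the nearest being Pomc, Samd7, Kcng4, Phactr3 and Tmprss2. Both patterns were thus shared by many genes. Tnfrsf17 has only bounds against B220+ cells, whose size follows the brightness of each probe, so no likeness is given for it.

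The list of TRAF adaptors, cIAP ligases and regulators at the receptor tails had a median ratio below 0 in both Venus+ populations, further below in the marrow. In spleen Venus+ cells 11 of its genes changed less than 2-fold. Of 16 genes detected on both arrays, 2 were at least 2-fold higher and 3 lower in spleen Venus+ than in B220+ cells (median log2 ratio -0.64), against 15.7% and 16.5% of all genes and a median of -0.02. In marrow Venus+ cells 1 was higher and 9 lower (median -1.11), against 22.4% and 30.7% of all genes and a median of -0.24. This marrow median ran from -1.11 to -0.50 over 11 alternatives and was under 2-fold in 5 of them. Birc3, which encodes the ubiquitin ligase cIAP2, had signals of 558 (B220+), 176 (spleen Venus+) and 102 (marrow Venus+), so its ratios against B220+ cells were -1.67 and -2.45. Traf3, the adaptor that keeps the NF-kB-inducing kinase low, stood at -0.74 and -1.66, and Traf2, its partner, at -0.35 and -1.17. Birc2, the gene of cIAP1, stood at -0.20 and -0.71. Traf3ip3, a TRAF3-interacting protein, had the lowest ratios of the list, -2.10 and -4.29, followed in both comparisons by Birc3. At the other end were Tnip2 (1.07 and 0.94) and Traf1 (1.06 and 0.04) in spleen Venus+ cells and Tnfaip3, which encodes the NF-kB inhibitor A20 (0.56 and 1.51), in marrow Venus+ cells. Over other backgrounds, limits and scalings, Traf2 fell short of 2-fold under 3 of 5 settings, while Birc3, Traf3 and Traf3ip3 stayed beyond it in the marrow.

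The kinases and factors of NF-kB were lower in marrow Venus+ cells, with 9 of 16 genes at least 2-fold lower than in B220+ cells, 0 higher and a median of -1.23, against 30.7% and 22.4% of all genes lower and higher. In spleen Venus+ cells 1 was higher, 3 were lower and the median was -0.06, against 15.7% and 16.5%. Ikbkb and Chuk encode the catalytic kinases of the IKK complex. Ikbkb had the lowest ratios of the list (-1.38 and -3.31), followed in spleen Venus+ cells by Tab2, an adaptor of the kinase TAK1 (-1.35), and Chuk stood at -1.31 and -2.62. Nfkb1 had signals of 323 (B220+), 184 (spleen Venus+) and 45.4 (marrow Venus+), with ratios of -0.81 and -2.83. Rela stood at -0.76 and -1.57. The factors of the non-canonical route, which BAFF receptor and TACI can feed, changed less than 2-fold, with Nfkb2 at -0.22 and -0.80 and Relb at -0.01 and -0.55. Rel stood at 0.06 and 0.14. Highest in the list were Map3k7 (1.03) and Nfkbib (0.54) in spleen Venus+ cells, and Nfkbia (0.28) and Nfkbib (0.28), both inhibitors of NF-kB, in marrow Venus+ cells. The marrow median of the list kept its sign but was under 2-fold in 8 of 11 alternatives, at -0.65 with the local background and -0.71 with the normexp background, and the spleen median ran from -0.12 to 0.60. From spleen to marrow Venus+ cells 7 of the 16 were at least 2-fold lower and 0 higher (median -0.92), where 15.2% of all genes were lower.

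Survival genes downstream of the receptors went in both directions. Of 17 genes detected on both arrays, 4 were higher and 2 lower in spleen Venus+ (median 0.47), and 5 were higher and 3 lower in marrow Venus+ cells (median 0.25, and between -0.10 and 0.70 over the alternatives). Of all genes, 15.7% and 16.5% were higher and lower in the first comparison and 22.4% and 30.7% in the second. Mcl1, the anti-apoptotic gene that BCMA is known to sustain in marrow plasma cells, had signals of 4239 (B220+), 2260 (spleen Venus+) and 1795 (marrow Venus+). It was thus lower in both Venus+ populations, with ratios of -0.91 and -1.24, and passed 2-fold in the marrow alone, where 3 of 5 other settings took it under 2-fold. Pim1, a survival kinase gene, had the highest ratio in spleen Venus+ cells with signals of 67.2, 654 and 237 over the 3 arrays (3.28 and 1.82), and Pim2, a kinase of plasma cell survival, stood at 2.15 and 1.32. Bcl2l1, which encodes BCL-XL, stood at 0.48 and 0.25.

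Bcl2, the founding anti-apoptotic gene of its family, has 2 probes that disagreed. The probe used by rule, the brightest, had signals of 16.99 (B220+), 105 (spleen Venus+) and 154 (marrow Venus+), with log2 ratios of 2.63 and 3.18 against B220+ cells. The other had 35.5, 69.3 and 26.3, with log2 ratios of 0.97 and -0.43. Bcl2 was higher in spleen Venus+ cells by both probes and had no settled direction in the marrow; with the local background, where the rule takes the other probe, the marrow ratio was -0.10. Bcl2l11, which encodes the pro-apoptotic BIM, had dim signals of 3.11, 14.7 and 11.4 (2.24 and 1.87). Bik, another pro-apoptotic gene, was undetected in B220+ cells and at least 7.19-fold higher in marrow Venus+ cells. Lowest were Foxo1, a transcription factor that survival kinases shut out of the nucleus (-1.84 and -3.06), and Mapk8, which encodes the stress kinase JNK1 (-1.74 and -3.28). Pim1 kept its 2-fold calls against B220+ cells under all 5 other settings, while Bcl2l11 did not with the normexp background.

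Among the proteases that cut the receptors and ligands off the membrane, Adam10 stood lowest of the genes detected on both arrays. Of 8 measured genes, 1 was lower and 0 higher in spleen Venus+ (median -0.30, which turned to at most 0.13 under 2 alternatives), and 3 were lower and 0 higher in marrow Venus+ cells (median -0.71), near the 16.5% and 30.7% of all genes that were lower. Adam10, which sheds TACI, had signals of 529 (B220+), 166 (spleen Venus+) and 69.2 (marrow Venus+), with ratios of -1.67 and -2.93 that stayed beyond 2-fold under 5 other settings. Adam17, a related sheddase, stood at -0.71 and -1.63. Of gamma-secretase, which sheds BCMA, Psen2 stood at -0.34 and -0.72, Ncstn at -0.33 and -0.71, Psenen at -0.27 and -0.04 and Aph1a at 0.74 and 0.58. Aph1b was detected in B220+ cells alone, at least 4.30-fold lower in spleen Venus+ and at least 3.18-fold lower in marrow Venus+ cells. Of all genes detected in B220+ cells and not on the Venus+ array, 27.2% and 41.6% had a bound of at least 2-fold. Aph1c, a dim gene, was at least 2-fold lower in the marrow (-1.47) but turned to 0.04 under another setting. Furin, which releases APRIL and BAFF, was dim and stood at 0.64 and 0.75.

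Proteoglycan cores and the enzymes of heparan sulfate, which APRIL and TACI bind, did not move together. Of 16 genes detected on both arrays 3 were higher and 3 lower in spleen Venus+ cells (median -0.27), and of 15 in the marrow comparison 4 were higher and 3 lower (median -0.41), and both medians turned above 0 under some alternatives (up to 0.12 and 0.15). Over all genes 15.7% and 16.5% were higher and lower in the spleen and 22.4% and 30.7% in the marrow comparison. Sdc1 encodes CD138, on which the Venus+ cells were gated, so its signals of 2.49 (B220+), 128 (spleen Venus+) and 220 (marrow Venus+) follow from the sort. Sdc2, a related core protein, stood at 1.23 and 3.21 and Gpc4, a glypican, at 1.23 and 2.09. Xylt1, which starts the sugar chain, stood at -1.60 and -3.62, and Ndst2, which sulfates it, at -0.52 and -2.44. Hs3st1, another sulfotransferase, was lowest in spleen Venus+ cells (-2.51) and undetected in the marrow, at least 14.9-fold lower than in B220+ and at least 2.62-fold lower than in spleen Venus+ cells. Of all genes detected on the spleen or the marrow Venus+ array alone, 28.7% and 42.8% had a bound of at least 2-fold. Sdc4 stood at -1.35 and -1.26 but had no settled direction, since the ratios turned to 0.43 and 0.13 under another setting.

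**Figure D4:**
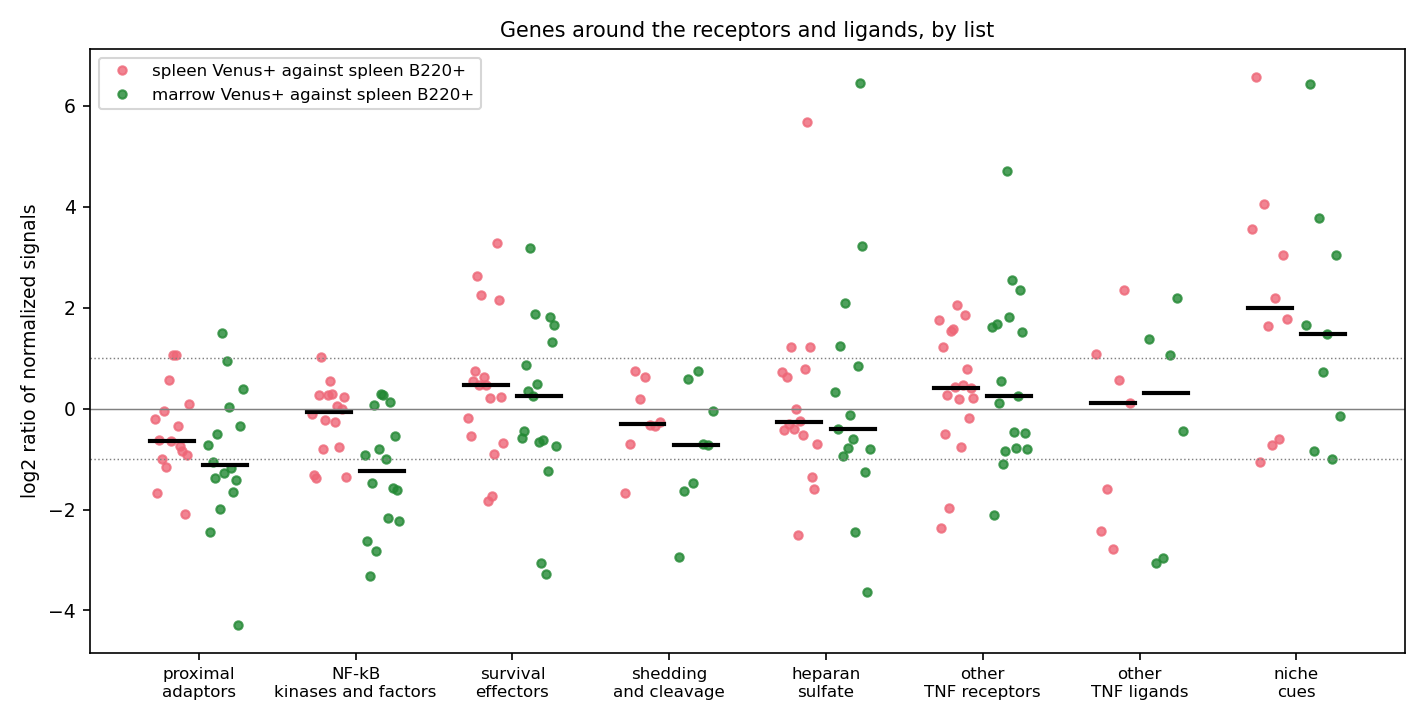
Log2 ratio (y axis) of each gene detected on both arrays in 8 lists around the receptors and ligands, for spleen Venus+ over B220+ cells (pink) and marrow Venus+ over B220+ cells (green), which share the B220+ array; black bars are list medians and dotted lines mark 2-fold. The NF-kB list has medians of -0.06 and -1.23, and the niche cue list 1.99 and 1.47.

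The other TNF receptors, several of which T cells also carry, differed in both directions. Of 18 measured genes 6 were higher and 2 lower in spleen Venus+ (median 0.41), and of 17 in the marrow comparison 7 were higher and 2 lower (median 0.25), and both medians turned below 0 under 1 alternative each (-0.11 and -0.27). The shares over all genes were 15.7% and 16.5% higher and lower in the spleen, and 22.4% and 30.7% in the marrow comparison. T cell markers, 6, 9 and 9 of 9 detected, summed to 421, 1061 and 1177 over the B220+, spleen Venus+ and marrow Venus+ arrays. Cd27, Tnfrsf14, Tnfrsf1b and Tnfrsf25 are also T cell genes, and the part of T cells in these ratios was not tested. Cd40, the receptor for T cell help, had signals of 511 (B220+), 98.7 (spleen Venus+) and 118 (marrow Venus+), and its ratios of -2.37 and -2.11 stayed beyond 2-fold under 5 other settings. Cd27, a receptor of memory B cells and plasma cells, was dim with signals of 6.22, 21.1 and 19.0 (1.76 and 1.61). Tnfrsf1b, which encodes TNF receptor 2, stood at 1.85 and 2.34, and Tnfrsf14, which encodes HVEM, at 2.05 and 2.55. Tnfrsf10b, which encodes the mouse TRAIL death receptor, had signals of 1.58, 4.72 and 41.5 and the highest ratio of the list in the marrow, 4.72, as well as from spleen to marrow Venus+ cells, 3.13. Its B220+ signal lay near that array's lowest detected signal of 1.34. With the local background or a limit from probe-free spots, Tnfrsf10b had no measured ratio against B220+ cells. With the normexp background the same 2 ratios were 1.12 and 0.81. Tnfrsf12a, the TWEAK receptor, stood at 0.42 and 1.81. Ngfr was lowest after Cd40 (-1.96 and -1.11) and its marrow ratio turned to 0.04 under another setting. Tnfrsf25 was undetected in B220+ cells, at least 2.51-fold higher in spleen Venus+ and at least 2.40-fold higher in marrow Venus+ cells, and Tnfrsf11a at least 2.74-fold higher in the marrow.

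Of the other TNF ligands, Ltb and Lta, whose products form lymphotoxin, were lower in both Venus+ populations. Ltb had signals of 2476 (B220+), 816 (spleen Venus+) and 320 (marrow Venus+) (-1.60 and -2.95), and Lta stood at -2.42 and -3.07. Tnf was lower in spleen Venus+ cells (-2.77) and undetected in the marrow, at least 7.09-fold lower than in B220+ cells. Tnfsf8, which encodes the CD30 ligand, stood at 2.36 and 2.20, and Fasl at 1.08 and 1.39. Against B220+ cells Ltb stayed beyond 2-fold under 5 other settings. With the normexp background Lta stood at -0.47 and -0.44, Tnf at -0.35 in spleen Venus+ cells, Tnfsf8 at 0.90 and 0.78 and Fasl at 0.31 and 0.41. Undetected in B220+ cells were Cd70, at least 9.63-fold higher in spleen Venus+ and at least 3.63-fold higher in marrow Venus+ cells, and Tnfsf10, the TRAIL gene, at least 2.56-fold and at least 6.31-fold higher. Tnfsf14 was at least 4.51-fold higher in the marrow. Tnfsf4 was detected in spleen Venus+ cells alone, at least 8.59-fold higher than in B220+ cells. In all, 2 of 7 measured ligands were higher and 3 lower in spleen Venus+ cells, and 3 of 6 were higher and 2 lower in the marrow comparison, against 15.7% higher and 16.5% lower of all genes in the first comparison and 22.4% and 30.7% in the second. Of the T cell markers, with the sums given above, Cd3e, Cd3g and Trat1 were undetected in B220+ cells, and their part in these ligands was not tested.

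Of the receptors for other survival cues of plasma cells detected on both arrays, 7 of 10 were higher and 1 lower in spleen Venus+ cells (median 1.99), and 5 of 9 were higher and 0 lower in marrow Venus+ cells (median 1.47, or 1.10 over 10 genes with bounds included). Over all genes 15.7% and 16.5% were higher and lower in the spleen and 22.4% and 30.7% in the marrow comparison. No probe was named for Traf5, Map3k14 or Tnfsf12, members of the lists above that were not analysed here. Cd28, which gives plasma cells a survival signal and is also a T cell gene, had signals of 5.52 (B220+), 528 (spleen Venus+) and 477 (marrow Venus+) (6.58 and 6.43), beside the higher T cell marker sums given above. Igf1r, the receptor of insulin-like growth factor, stood at 4.06 and 3.77, and Itgal, an adhesion integrin, at 3.05 and 3.04. Il6st, the signalling chain of the IL-6 receptor, stood at 2.19 and 1.47, while Il6ra, the chain that binds IL-6, stood at -0.73 in spleen Venus+ cells and was undetected in the marrow, at least 3.22-fold lower than in B220+ cells. Cxcr4, the receptor that draws plasma cells to the marrow, had signals of 235, 113 and 131 and ratios of -1.06 and -0.84, the spleen ratio falling under 2-fold in 3 of 5 other settings. Itga4, an integrin chain of plasma cell adhesion, stood at -0.60 and -0.99. With the normexp background the marrow median of this list was 0.60. From spleen to marrow Venus+ cells 0 of 9 were higher and 2 lower, Itgb1 (-1.94) and Ackr3 (-1.90), where 4.33% and 15.2% of all genes were higher and lower.

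**Figure D5:**
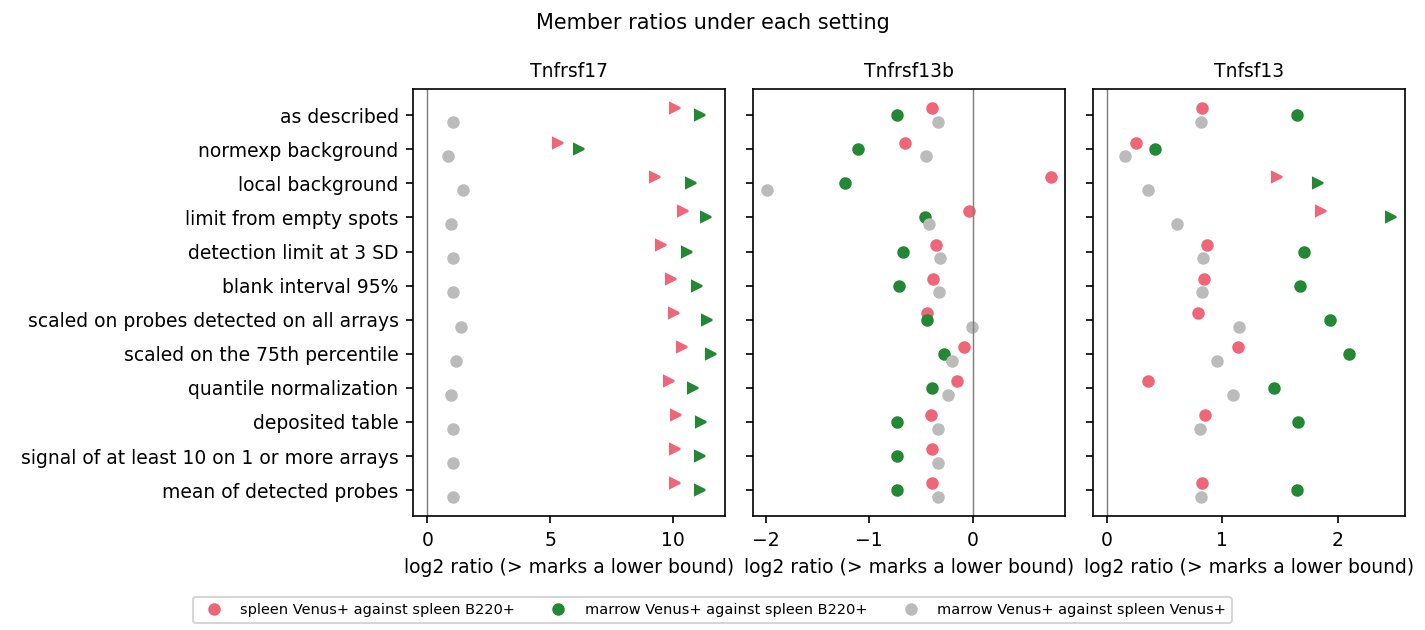
Log2 ratios of Tnfrsf17, Tnfrsf13b and Tnfsf13 (x axes, each with its own range) in the 3 comparisons under each way of processing (y axis); triangles mark lower bounds. Tnfrsf17 stays above 0 in every comparison, Tnfrsf13b turns to 0.76 for spleen Venus+ over B220+ cells with the local background, and Tnfsf13 runs from 0.26 to 1.85 for spleen Venus+ over B220+ cells.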

How the data were processed

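Each of 3 arrays (Toray 3D-Gene, mouse, Cy5) measured the amplified RNA of 1 sorted population. The deposited scanner files give, per the file headers, each spot's median intensity and a local background. A second table holds intensity values the authors processed; per the design text, a mean blank level was subtracted and the median detected signal set to 25. Recomputed from the spot medians with the middle 90% of the 2736 blank spots (2462 spots) and a limit of 2 SD above their mean, detection differed from that table for 0 probes per array, and values of 10 or more differed by at most 4.05%. This table is linear and uncentred, with a median of 25 in each column. No extraction software version was stated in these sources.

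A gene stands on its brightest probe. Symbols were updated through RefSeq. Of 16631 named probes, 12622 had a current symbol and 3947 were updated. Another 59 were kept as given, since several genes share the synonym, and 3 were not found. A further 6842 probes have no symbol. No test was possible with 1 array per population, so precision is limited by the number of arrays. The spot error joins the blank SD (0.670 to 1.18 in signal) and the spread of 24 copies of each positive control (5.21% to 7.57%). Alternatives were the normexp background with offset 50, the local background, a limit from probe-free spots, a limit of 3 SD, a 95% blank interval, 3 other scalings, the deposited table, a minimum signal of 10, a mean over probes, and thresholds of 1.5-fold and 3-fold. The ratio step was tested on simulated arrays of 23473 probes, all built from the B220+ array. Only detected probes with a signal of 25 or more there were changed, 2-fold or 4-fold. Of these, 98.0% to 100% came within 0.5 of the true log2 ratio. Dimmer probes, such as that of Tnfsf13, were not covered by this test. It changed 45 to 54 probes at each fold, about as many up as down. Shifts as broad as the 53.1% of genes at least 2-fold apart between marrow Venus+ and B220+ cells, which could affect the scaling, were not covered either.

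The members and gene lists were chosen with earlier results of these data known. Genes were named from the 2 highest and 2 lowest ratios of each list per comparison, those detected on 1 array alone whose bound reached 2-fold, and genes fixed by role; Ncstn, Sdc4 and Prg2 were added after their values were seen. Python 3.11.15, numpy 2.4.6, pandas 2.3.3, R 4.3.3 and limma 3.58.1 (normexp) were used.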

Additional observations from a re-analysis of the deposited data

How the results depend on the processing

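Values follow the order spleen Venus+ over B220+, marrow Venus+ over B220+, marrow over spleen Venus+ cells, as log2 ratios. With the normexp background, Tnfrsf17 was at bounds of 5.32 and 6.15 and at 0.83, Tnfrsf13b at -0.65, -1.11 and -0.45, Tnfsf13 at 0.26, 0.42 and 0.16, and genes at least 2-fold higher and lower numbered 410 and 1174, 578 and 2143, and 62 and 315, against 1828 and 1915, 2424 and 3320, and 492 and 1720 as described. With the local background, Tnfrsf13b was at 0.76, -1.23 and -1.99, Tnfsf13 at a bound of 1.47 for spleen over B220+ cells and at 0.36 for marrow over spleen, Tnfrsf17 at 1.47 for marrow over spleen, and 1156 and 2140 genes were lower than in B220+ cells. With the limit from probe-free spots, Tnfrsf13b was at -0.038 and -0.46, Tnfsf13 at bounds of 1.85 and 2.46, and 2865 genes were higher and 1078 lower in spleen Venus+ cells. Scaled on probes detected on all arrays, Tnfrsf13b was at -0.44 and, for marrow over spleen, -0.0051, Tnfrsf17 at 1.36, and 1250 genes were higher and 916 lower in the marrow. Scaled on the 75th percentile, Tnfrsf13b was at -0.085, -0.28 and -0.20, Tnfrsf17 at 1.17, and 1156 genes were lower in spleen Venus+ than in B220+ cells. With quantile normalization, Tnfrsf13b was at -0.15 and -0.39, and 1175 genes were higher and 1135 lower in marrow than in spleen Venus+ cells. At 1.5-fold, 3082 were higher and 3288 lower in spleen Venus+ than in B220+ cells, and 1578 and 3303 in marrow over spleen; at 3-fold the pairs were 924 and 727, 1380 and 2060, and 118 and 584. The causes were not tested, beyond the thresholds' own construction.

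The other 121 values of these results stayed within the spot error or within 1.5 times the count. The Tnfrsf17 bounds against B220+ cells have no spot error, and a window of 2-fold was used for them. Of the 24 list medians, 10 changed sign under at least 1 alternative; as described these 10 lay between -0.41 and 0.41. Of the list calls, 23 of 56 in marrow over B220+, 18 of 43 in spleen over B220+ and 6 of 30 in marrow over spleen stayed beyond 2-fold under those of 5 other settings that measured both arrays, of which each call had between 3 and 5. A minimum signal of 10 leaves no value for Tnfsf13. The median spot of repeated probes was not run, as no member's probe is repeated. No paired analysis was possible because each population has 1 array and the labels carry no replicate numbers.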
